A study of Mus musculus with 16 samples.

Results

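The inflammasome and interleukin-1 (IL-1) genes described here are Nlrp3, Pycard, Casp1, Casp4, Gsdmd, Il1a, Il1b, Il1rn and Il18. They were taken by name as the core of 1 pathway, and all 9 were found among the 18580 genes measured. Expression was measured by SMART-seq2, a full-length RNA sequencing method, in 16 libraries of immune cells sorted from the mouse brain. Mice received bilateral intrastriatal injections of α-synuclein (α-syn) at 12 weeks of age, either monomeric (MONO) or as pre-formed fibrils (PFF), and cells were collected 2 months after surgery. Mice were males and females, either WT (C57BL/6N) or CD163KO littermates, which lack CD163, a haemoglobin scavenger receptor of macrophages. No uninjected brains are among these libraries, so every group carried α-syn and a surgery. Microglia were gated as CD11b+ CD45 low/intermediate cells and macrophages as CD11b+ CD45 high cells, a gate that, as the study describes it, takes in macrophages of the brain borders, infiltrating macrophages, NK cells and neutrophils. Each combination of population, sex, genotype and treatment had 1 library, although the methods of the study mention triplicates for sequencing and several mice per group. Whether a library is a pool of mice or of replicates is not given in the sources used here.

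The inflammasome is a protein platform of myeloid cells. A sensor such as NLRP3 recruits the adaptor ASC (encoded by Pycard), which recruits caspase-1. Caspase-1 then cleaves pro-IL-1β and pro-IL-18 into their active forms and cuts gasdermin D, whose released fragment forms pores in the cell membrane. IL-1α needs no such cleavage to bind the IL-1 receptor, and the IL-1 receptor antagonist (Il1rn) occupies that receptor without signalling. Microglia and macrophages are the main cells of the brain that carry this machinery. RNA levels show how much of each precursor was transcribed and kept, not whether an inflammasome was active.

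Depth was between 8648751 and 21433841 estimated counts per library. The libraries labelled macrophages and microglia matched their markers. The summed level of 10 homeostatic microglia markers was 897 to 1714 FPKM (fragments scaled to transcript length and library total) in macrophages and 15742 to 41913 FPKM in microglia. For 10 border-associated macrophage markers the sums were 1565 to 4628 and 28.3 to 166 FPKM. The macrophage gate also held many neutrophil transcripts, with summed levels of 12 markers of 22182 to 134672 FPKM against 1057 to 2876 FPKM in microglia. No border-associated or neutrophil marker was at 0 in all 8 libraries of either population. The 4 CD163KO macrophage libraries had 0 or 1 Cd163 count, against 748 to 5275 in the 4 WT macrophage libraries. In microglia Cd163 was low and did not separate the genotypes, with 5 to 23 counts in the 4 CD163KO libraries, at least 46 in both female WT and 0 and 1 in the male WT libraries, so that it does not check the genotype labels of microglia. One label was contradicted: the microglia library labelled female CD163KO MONO held 799 counts from 4 Y-linked genes, where the other 7 libraries labelled female held 0 to 2. The combinations male WT PFF and male CD163KO MONO stood apart in both populations. Their 10 most abundant genes took 16.5% and 16.6% of the counts in macrophages, where the other 6 libraries had 39.7% to 64.0%, and took 58.7% and 47.7% in microglia, where the others had 13.5% to 16.4%. The study left male CD163KO MONO out, and so do the tests below, which used 14 libraries. All 16 libraries enter the descriptions.

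The 2 populations carried opposite IL-1 cytokines. Il1b was the most abundant of the 9 genes in macrophages and Il1a was near the bottom, whereas microglia held more Il1a than Il1b in every library. The control regions of the genes that were high in macrophages are shown first. Il1b lies on chromosome 2 (129364569 to 129371164, minus strand, GRCm38.p6) and Il1rn on the same chromosome (24336860 to 24351491, plus strand). Il1rn has an upstream start and a pair of downstream starts. In GENCODE the downstream starts lie 8435 and 8457 bases further on, within the transcript that uses the upstream start. The bases from -250 to -31 are given from RefSeq, counted from the start that its promoter window uses. For Il1b that start lies inside the gene span given above, and the downstream Il1rn pair is shown by a single window. Capitals mark matches, on either strand, to 4 letter patterns: GGGNNNNNCC for NF-kB, GAGGAA for PU.1, TTNCNNAA for C/EBP and TGANTCA for AP-1, all of them factors of myeloid gene control.
Il1b, chr2:129371170-129371389, minus strand: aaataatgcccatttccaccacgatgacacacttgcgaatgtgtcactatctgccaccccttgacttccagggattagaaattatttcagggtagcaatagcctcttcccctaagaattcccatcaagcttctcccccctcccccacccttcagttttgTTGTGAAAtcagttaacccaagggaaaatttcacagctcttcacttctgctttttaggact
Il1rn, downstream start, chr2:24345041-24345260, plus strand: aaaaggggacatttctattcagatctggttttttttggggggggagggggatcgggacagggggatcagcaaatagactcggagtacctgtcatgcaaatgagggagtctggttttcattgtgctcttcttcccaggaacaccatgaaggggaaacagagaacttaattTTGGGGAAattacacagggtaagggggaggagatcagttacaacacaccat
Il1rn, upstream start, chr2:24336610-24336829, plus strand: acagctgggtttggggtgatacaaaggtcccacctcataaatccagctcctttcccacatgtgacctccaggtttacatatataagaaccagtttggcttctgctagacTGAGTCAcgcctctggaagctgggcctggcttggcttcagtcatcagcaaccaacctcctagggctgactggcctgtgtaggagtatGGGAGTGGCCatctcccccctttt

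The windows of Il1b and of the downstream Il1rn start each held 1 match to the C/EBP letters, at -91 to -84 and at -81 to -74 respectively, and no other match. The upstream Il1rn window held the AP-1 letters at -141 to -135 and the NF-kB letters at -54 to -45. Of 32851 RefSeq promoter windows of the same 220 bases, 34.2% held the C/EBP letters, 41.2% the NF-kB letters, 20.4% the PU.1 letters and 6.12% the AP-1 letters. The matches overlapped no other pattern and are a description of the letters only.

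Il1b encodes the IL-1β precursor. Its level in the 8 macrophage libraries was lowest at 143 FPKM (male CD163KO PFF), had a median of 238 FPKM and was highest at 536 FPKM (male WT PFF). In microglia the lowest, median and highest levels were 5.09, 20.8 and 47.3 FPKM. The ranges did not overlap, and in each of the 8 matched combinations macrophages were higher, by 4.10-fold to 89.0-fold. Of the 11810 genes that reached 1 FPKM in 2 or more of the 14 tested libraries, 2.61% lay wholly higher in macrophages in the same way, of the members Il1b alone. The log2 fold change of counts, macrophages against microglia, was 4.81 ± 0.30 (SE; adjusted p = 2.2e-06, edgeR's quasi-likelihood test with Benjamini-Hochberg adjustment over all genes).

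Il1a encodes IL-1α and lies next to Il1b on chromosome 2 (129299609 to 129310186). Its macrophage levels had a lowest value of 0, a median of 0.985 and a highest value of 6.90 FPKM (male WT MONO). Both 0 values were in the macrophage libraries that stood apart, male WT PFF and male CD163KO MONO, which had no Il1a count. In microglia the lowest level was 29.5, the median 104 and the highest 174 FPKM (female WT PFF). The ranges did not overlap, as for 7.21% of the genes, which lay wholly lower in macrophages. In the 6 combinations with counts on both sides, microglia were higher by 17.3-fold to 345-fold. For the macrophage libraries without a count, taking 3 counts in that library as the limit a count of 0 allows, microglia were at least 346-fold higher in male WT PFF and at least 376-fold higher in male CD163KO MONO. Counts differed by -4.71 ± 0.90 (log2 fold change ± SE; adjusted p = 0.0033, edgeR).

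The balance of both cytokines within a library does not depend on how libraries are scaled to each other. Il1a made up 72.5% to 87.9% of the summed Il1a and Il1b FPKM in the 8 microglia libraries and 0% to 2.57% in the 8 macrophage libraries. Every microglia library, under MONO or PFF and in either genotype, thus held more Il1a than Il1b per length, and every macrophage library the reverse. These shares cover the gate as sorted. In bulk RNA, fewer cells of a type and less RNA per cell cannot be told apart, and neutrophil, monocyte and border-associated macrophage markers were all higher in the gate that held more Il1b. Their part in the difference was not tested.

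Il1rn encodes the receptor antagonist. Macrophage levels were lowest at 3.19 (female WT PFF), had a median of 12.4 and were highest at 72.0 FPKM (male WT PFF). Microglia had 0.02, 0.80 and 5.86 FPKM as lowest, median and highest level, and the lowest of them, in male CD163KO MONO, was a single count. The ranges overlapped in FPKM, because female WT MONO microglia (5.86 FPKM) lay above 3 macrophage libraries, but macrophages were higher in 8 of 8 matched combinations. Leaving out the combination with the single count, the fold was 2.49 to 514, where the highest fold, in male WT PFF, rests on 6 microglial counts. Counts differed by 4.74 ± 0.60 (log2 fold change ± SE; adjusted p = 2.4e-04, edgeR).

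Il1rn and Il1b were thus both higher in macrophages, and their ratio was compared as a measure of antagonist per cytokine transcript. Il1rn amounted to 1.65% to 13.4% of the Il1b FPKM in macrophages and to 0.393% to 33.6% in microglia, and the ranges overlapped. The mean paired difference of the log2 ratio, macrophages minus microglia, was 0.02 ± 1.64 (SD, n = 7 combinations), with macrophages higher in 4 of 7 (p = 0.98, exact two-sided sign-flip permutation test, smallest possible p 0.016). With male CD163KO MONO, which gave the lowest microglial share from a single Il1rn count, the difference was 0.58 ± 2.20 (SD, n = 8 combinations), with macrophages higher in 5 of 8 (p = 0.49, same exact test). In tested males the share was higher in macrophages: 3.64% against 2.75% (CD163KO PFF), 4.24% against 1.60% (WT MONO) and 13.4% against 2.33% (WT PFF). Those microglial shares rest on 15, 11 and 6 Il1rn counts. In females it was lower in macrophages for CD163KO MONO (5.17% against 13.6%), WT MONO (6.99% against 33.6%) and WT PFF (1.65% against 2.71%). It was higher for CD163KO PFF (3.03% against 2.68%). A difference between the sexes was not tested.

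Il18 encodes the IL-18 precursor. Macrophages had 8.53, 15.7 and 32.8 FPKM as lowest, median and highest level, and microglia 18.6, 45.9 and 54.4 FPKM. Microglia were higher in 7 of 8 combinations in FPKM, yet the fitted log2 fold change of counts was 0.09 ± 0.37 (SE; adjusted p = 0.89, edgeR). With limma on log2(FPKM + 1), Il18 was called lower in macrophages (-1.26, adjusted p = 0.031). The sign of the Il18 difference was not stable. It was -1.32 with library totals and, with TMM factors, -0.26 with no filter on counts and -0.22 with male CD163KO MONO in the fit, and it also turned without female CD163KO PFF (-0.10) and without male WT MONO (-0.05). The median log2 fold change of all genes moved as well. Less that median, Il18 was 0.44 in the reported fit and 0.64 with library totals. It was 0.65 with no filter on counts, 0.18 with male CD163KO MONO, 0.26 without female CD163KO PFF and 0.36 without male WT MONO. With limma it was -0.20, 0.27 and -0.53 at pseudocounts of 1, 0.1 and 5 and -0.88 with no filter. In FPKM, microglia held between 0.819 and 5.62 times the macrophage level.

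**Figure D1:**
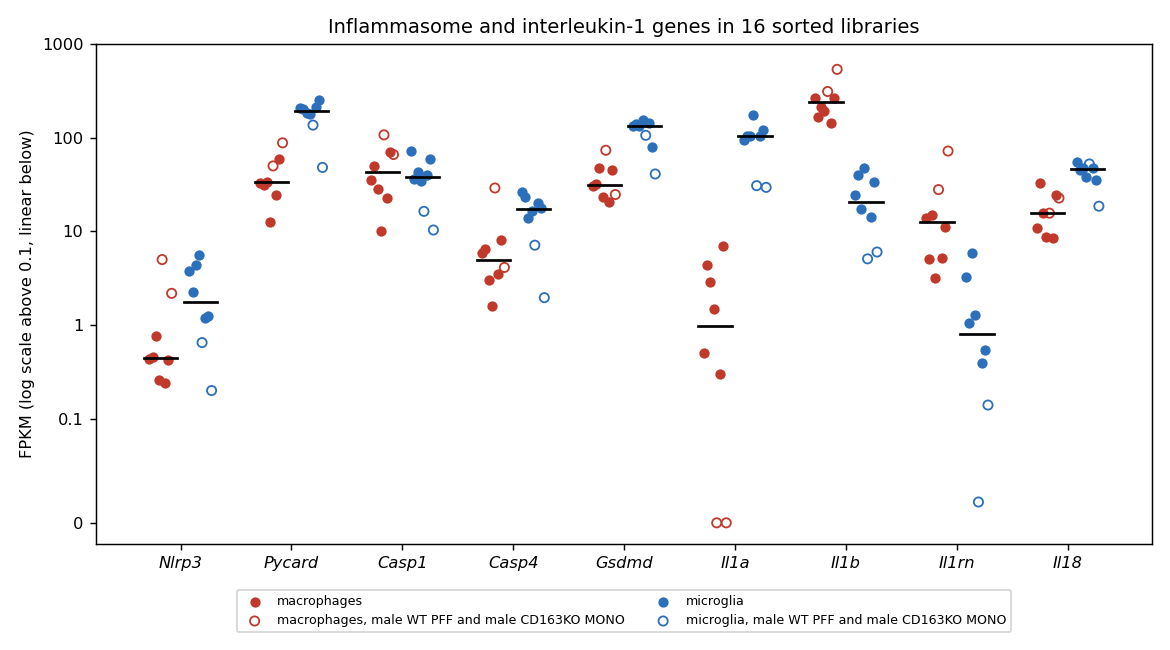
FPKM of the 9 genes in each of the 16 libraries (vertical axis, logarithmic above 0.1 and linear below), with macrophages in red and microglia in blue, 1 point per library and a black line at the median of 8. Open points are male WT PFF and male CD163KO MONO. Il1b lies between 143 and 536 FPKM in macrophages and between 5.09 and 47.3 FPKM in microglia, and Il1a shows the reverse order with 0 to 6.90 against 29.5 to 174 FPKM.

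Of the platform genes, the sensor was low and the adaptor was high. Nlrp3, the sensor, had 0.24, 0.445 and 5.00 FPKM as lowest, median and highest level in macrophages and 0.20, 1.76 and 5.63 FPKM in microglia. The highest macrophage values, 5.00 and 2.18 FPKM, were those of male CD163KO MONO and male WT PFF, and the other 6 lay between 0.24 and 0.76 FPKM. Its log2 fold change, macrophages against microglia, was -0.50 ± 0.80 (SE; adjusted p = 0.70, edgeR), and the ranges overlapped.

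Pycard, the adaptor, had 12.6, 33.3 and 88.1 FPKM in macrophages and 48.1, 193 and 255 FPKM in microglia, as lowest, median and highest level. The overlap came from male WT PFF, which held both the highest macrophage value (88.1 FPKM) and the lowest microglial value (48.1 FPKM). In the other 7 combinations microglia were higher. In the fit Pycard gave -0.90 ± 0.18 (log2 fold change ± SE; adjusted p = 0.0050, edgeR), a smaller difference than those of Il1a and Il1b.

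Casp1, the effector protease, had 10.1, 42.7 and 107 FPKM in macrophages and 10.3, 37.7 and 71.8 FPKM in microglia. In FPKM macrophages were higher in 4 of 8 combinations, and after division by the TMM factors, which set libraries to a common level of the genes they share, in 8 of 8. The log2 fold change was 1.27 ± 0.24 (SE; adjusted p = 0.0033, edgeR with TMM factors), but -0.19 (adjusted p = 0.81, edgeR) with library totals. The median log2 fold change of all 13116 genes tested moved as well, from -0.35 with TMM factors to -1.95 with library totals. Relative to that median, Casp1 was higher in macrophages by 1.62 with TMM factors and by 1.76 with library totals on the log2 scale. With limma on log2(FPKM + pseudocount) this excess was smaller, 0.94 with a pseudocount of 1, 1.47 with 0.1, 0.44 with 5 and 0.27 with no filter, and Casp1 was not called.

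Casp4, the caspase that senses cytosolic lipopolysaccharide, and Gsdmd, the pore-forming substrate, gave no call with TMM factors. Casp4 had a median of 5.00 FPKM in macrophages (1.60 to 29.0) and 17.3 FPKM in microglia (1.96 to 26.2). Gsdmd had 31.1 FPKM (20.4 to 73.4) and 134 FPKM (41.0 to 153), and microglia were higher in 8 of 8 combinations in FPKM. Their log2 fold changes were -0.35 ± 0.46 (Casp4, adjusted p = 0.64) and -0.41 ± 0.31 (Gsdmd, adjusted p = 0.39; SE, edgeR). Relative to the median of all genes both lay within 0.14 of 0 under either scaling, with a sign that changed from TMM factors to library totals. Limma on log2(FPKM + 1), which uses no TMM factors, called both lower in macrophages (Casp4 -1.55, adjusted p = 0.013, and Gsdmd -1.80, adjusted p = 0.0029), where the median of all genes was -1.05.

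Of the 9 genes, 3 were thus called higher in macrophages (Casp1, Il1b and Il1rn), where 12.3% of the 13116 genes tested were, and 2 were called lower (Il1a and Pycard), where 7.13% were. Over all genes 1607 were higher and 935 lower with TMM factors, 2223 and 2499 with DESeq2, and 592 and 5732 with library totals. The median log2 fold change of the 9 was -0.35, the same as that of all genes to 2 decimals. The same 5 genes were called, in the same directions, when each combination was left out in turn. Relative to the median of all genes, Il1b differed by 5.16 and 5.27, Il1rn by 5.08 and 4.96, Il1a by -4.36 and -4.58 and Pycard by -0.55 and -0.44 with TMM factors and library totals, respectively. Library totals called Gsdmd (log2 fold change -1.84, adjusted p = 0.0053) in place of Casp1. Limma on log2(FPKM + 1) called 7 members, Casp4, Gsdmd and Il18 lower in addition and Casp1 no longer. Without male WT PFF, the log2 fold changes of the called genes were 1.31 (Casp1), -4.09 (Il1a), 4.81 (Il1b), 4.33 (Il1rn) and -0.92 (Pycard).

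**Figure D2:**
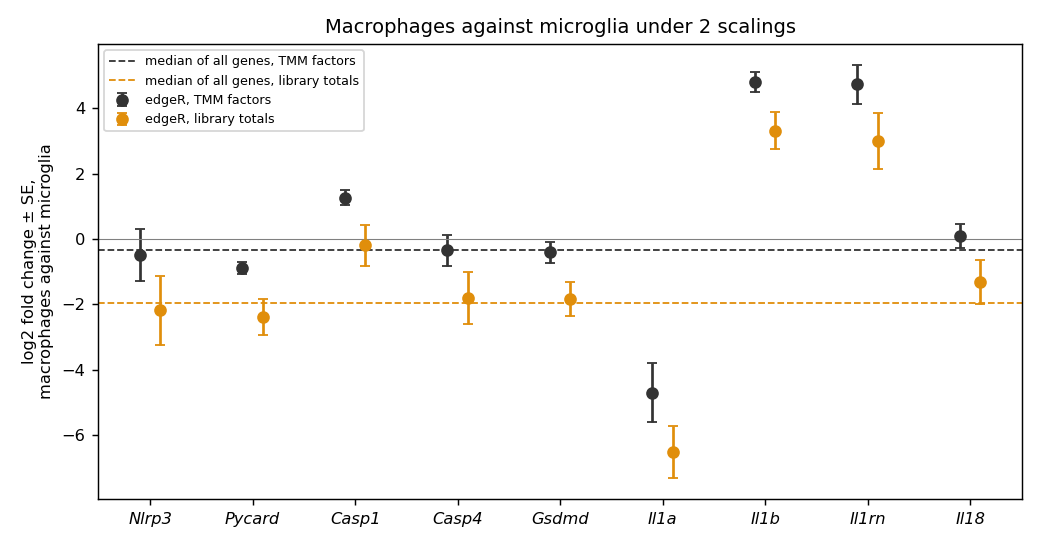
Log2 fold changes of estimated counts, macrophages against microglia, with their SE (vertical axis) for the 9 genes, fitted with edgeR to 14 libraries under TMM factors (black) and library totals (orange). Dashed lines are the median of all 13116 genes under each scaling, -0.35 and -1.95. Il1b and Il1rn lie far above and Il1a far below either line, while Casp1 is above 0 in one scaling and below it in the other.

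The order of the genes also differed between the populations. In macrophages Il1b was above Casp1, the next gene, in 8 of 8 libraries, whereas Casp1, Pycard and Gsdmd followed with medians of 42.7, 33.3 and 31.1 FPKM that did not separate, each being above the next in 4 of 8 libraries. Il18 and Il1rn did not separate either (5 of 8), and Il1a and Nlrp3 closed the order. In microglia Pycard came first and was above Gsdmd in 8 of 8 libraries, followed by Il1a, Il18, Casp1, Il1b, Casp4, Nlrp3 and Il1rn. Neighbours there kept their order in 5 to 8 of 8 libraries, the fewest for Il1b above Casp4. Casp1 amounted to 0.75 to 2.15 times Pycard in macrophages and to 0.120 to 0.349 times Pycard in microglia, so that these ratios of FPKM within a library did not overlap.

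The 40 further genes of the pathway were chosen with earlier results of these data known. Of 39 that could be tested, 8 were higher and 5 lower in macrophages (edgeR), where 12.3% and 7.13% of all genes were, with a median log2 fold change of 0.49 against -0.35 for all genes. The highest was Il1r2, the decoy receptor that binds IL-1 without signalling. It had 7.79 to 143 FPKM in macrophages and 0 to 0.33 FPKM in microglia, where it was above 0 in 2 of 8 libraries (log2 fold change 10.69, adjusted p = 2.3e-05, edgeR). Next came Ctsg and Prtn3, neutrophil granule proteases that can cleave IL-1 family cytokines, and Nlrp12, a sensor of the same family as Nlrp3 found in granulocytes. Ctsg had 4.28 to 181 FPKM in macrophages and was above 0 in 1 of 8 microglia libraries, and Prtn3 had 6.22 to 91.7 FPKM and was above 0 in 3 of 8. Nlrp12 was low throughout, at 0 to 1.86 FPKM in macrophages and 0 to 0.03 in microglia. These fitted fold changes depend on the prior count where a population is mostly at 0. The neutrophil markers, with a summed level of at least 22182 FPKM in the macrophage gate and at most 2876 FPKM in microglia, moved with these genes, and their part was not tested.

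Of the 5 pathway genes called lower in macrophages, the 4 with the lowest fold changes are described. Nlrp1b and Casp12 had lower fitted values than most of them but were not called (log2 fold changes -2.89 and -2.70, adjusted p = 0.12 and 0.35, edgeR). Il1rl2, the receptor of IL-36, had a median of 17.6 FPKM in microglia and 0.48 FPKM in macrophages (log2 fold change -3.77, adjusted p = 0.0041). Naip5, the flagellin sensor of the NLRC4 inflammasome, had medians of 34.7 and 2.81 FPKM (-1.94, adjusted p = 2.6e-04). Aim2, the sensor of cytosolic DNA, had medians of 25.3 and 2.03 FPKM (-1.69, adjusted p = 0.042). Irak2, a kinase of the IL-1 receptor signal, had medians of 18.6 and 2.27 FPKM (-1.48, adjusted p = 0.018; all edgeR). In FPKM the ranges of Naip5 did not overlap (1.37 to 15.0 in macrophages and 22.9 to 53.3 in microglia), whereas those of Il1rl2, Aim2 and Irak2 did, with Aim2 reaching 37.4 FPKM in 1 macrophage library and 4.81 FPKM in 1 microglia library.

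The study asked whether α-syn fibrils and the loss of CD163 change these immune cells. For PFF against MONO, no member was called in macrophages or microglia (edgeR, 3 MONO and 4 PFF libraries of each population, with sex and genotype in the model). Across all genes 0% of 11276 were called in macrophages and 0% of 12206 in microglia, so the members did not differ from the background in this. At an unadjusted p under 0.05 there were 125 and 748 genes, with 0 members in both, and DESeq2 called 6 and 26 genes and 0 members. Library totals moved the median log2 fold change of all genes from -0.12 to -0.43 in macrophages and from 0.12 to -0.38 in microglia. The fitted log2 fold changes of the members lay between -1.15 and 0.27 in macrophages with SE of 0.33 to 2.99, and between -1.17 and 0.55 in microglia with SE of 0.29 to 1.33.

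In macrophages, Il1b read 213 (female WT), 263 (male WT), 266 (female CD163KO) and 311 FPKM (male CD163KO) under MONO. Under PFF the same groups read 194, 536, 168 and 143 FPKM. Male WT was higher with PFF and the other 3 pairs were lower, and the treatments overlapped. Divided by the TMM factors, however, the levels under MONO were 274, 275, 502 and 214 and under PFF 508, 370, 247 and 296, so that 3 pairs were higher with PFF and female CD163KO was lower. The direction of Il1b in female WT and male CD163KO thus depended on the scaling. The fitted log2 fold change without male CD163KO MONO was 0.13 ± 0.42 (SE, adjusted p = 1.0, edgeR).

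Il1rn in macrophages was higher with PFF in male WT and lower in the other 3 pairs, under both scalings. Under MONO the levels were 14.9 (female WT), 11.1 (male WT), 13.8 (female CD163KO) and 27.9 FPKM (male CD163KO), and under PFF 3.19, 72.0, 5.08 and 5.20 FPKM. All MONO libraries were above the PFF libraries but for male WT PFF, the highest of the 8. With that library the log2 fold change was -0.53 ± 0.89 (adjusted p = 1.0), and without it -1.12 ± 0.41 (unadjusted p = 0.021, adjusted p = 1.0; SE, edgeR). It moved to 0.52 without female CD163KO MONO, so single libraries set its sign. Markers of other cells in the gate moved as well. The summed level of 7 monocyte markers was lower with PFF in the 3 pairs where Il1rn was lower, from 1452 to 304 FPKM in female WT, from 681 to 533 in female CD163KO and from 3000 to 1154 in male CD163KO, and it was 1689 and 1645 FPKM in male WT. After division by TMM factors it was higher with PFF in male CD163KO (2068 and 2387) and lower in male WT (1769 and 1136). In both of those pairs the scaled Il1rn level moved the other way. Neutrophil marker sums were lower with PFF in female WT (121149 and 22182 FPKM), female CD163KO (98753 and 32903) and male WT (118223 and 71689) and higher in male CD163KO (82260 and 134672). Their part in the Il1rn values was not tested. Without male WT PFF, 13.8% of 8966 genes did not overlap between MONO and PFF in FPKM, in either direction. Of the members, Pycard, Il1b and Il1rn were wholly lower with PFF in this way. After division by TMM factors the share was 10.8%, and of the members Il1rn alone stayed apart.

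Microglial Il1b under MONO was 17.5 (female WT), 33.7 (male WT), 24.2 (female CD163KO) and 5.09 FPKM (male CD163KO), and under PFF 47.3, 6.02, 39.6 and 14.2 FPKM. Female libraries were higher with PFF in both genotypes, and the male WT pair was lower. In male CD163KO, whose MONO library the tests left out, PFF was higher. Microglial Il1a under MONO was 104, 119, 94.9 and 30.8 FPKM in that order of groups, and under PFF 174, 29.5, 104 and 103 FPKM. Treatments overlapped for both genes, and neither was called (log2 fold changes 0.42 ± 0.44 and 0.40 ± 0.29, adjusted p = 0.87 and 0.80; SE, edgeR). With library totals the log2 fold changes were -0.12 and -0.055, where the median of all genes was -0.38. Immediate early genes, which respond to stimulation and to cell isolation, moved in the same direction as both cytokines in all 4 microglial pairs in FPKM. The summed level of 12 such genes went from 3857 under MONO to 6825 FPKM under PFF in female WT, from 1999 to 4014 in female CD163KO, from 653 to 3384 in male CD163KO and from 1803 to 1226 in male WT. After division by TMM factors the sum in male WT was higher with PFF too (1019 and 2658). Their part in the cytokine values was not tested.

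Casp1 was the one member whose microglial FPKM did not overlap between the treatments in the 14 libraries. Under MONO it read 43.3 (female WT), 59.1 (male WT) and 71.8 FPKM (female CD163KO), and under PFF 34.6, 10.3, 35.9 and, in male CD163KO, 39.6 FPKM. All MONO values were above all PFF values, as they were for 8.13% of 11119 genes. The excluded male CD163KO MONO library read 16.4 FPKM, within the PFF range, and division by TMM factors made the ranges overlap. Its fitted log2 fold change was -0.57 ± 0.30 (unadjusted p = 0.084, adjusted p = 0.76; SE, edgeR), and it stayed between -0.71 and -0.23 when libraries were left out in turn. For Gsdmd, PFF microglia were all higher (84.5 to 92.4) than the 3 MONO libraries of the tests (44.9 to 78.5) after division by TMM factors, as for 4.4% of 11119 genes. The excluded male CD163KO MONO library, at 124, lay above every PFF value. The FPKM overlapped, and the log2 fold change was 0.55 ± 0.34 (adjusted p = 0.77; SE, edgeR).

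**Figure D3:**
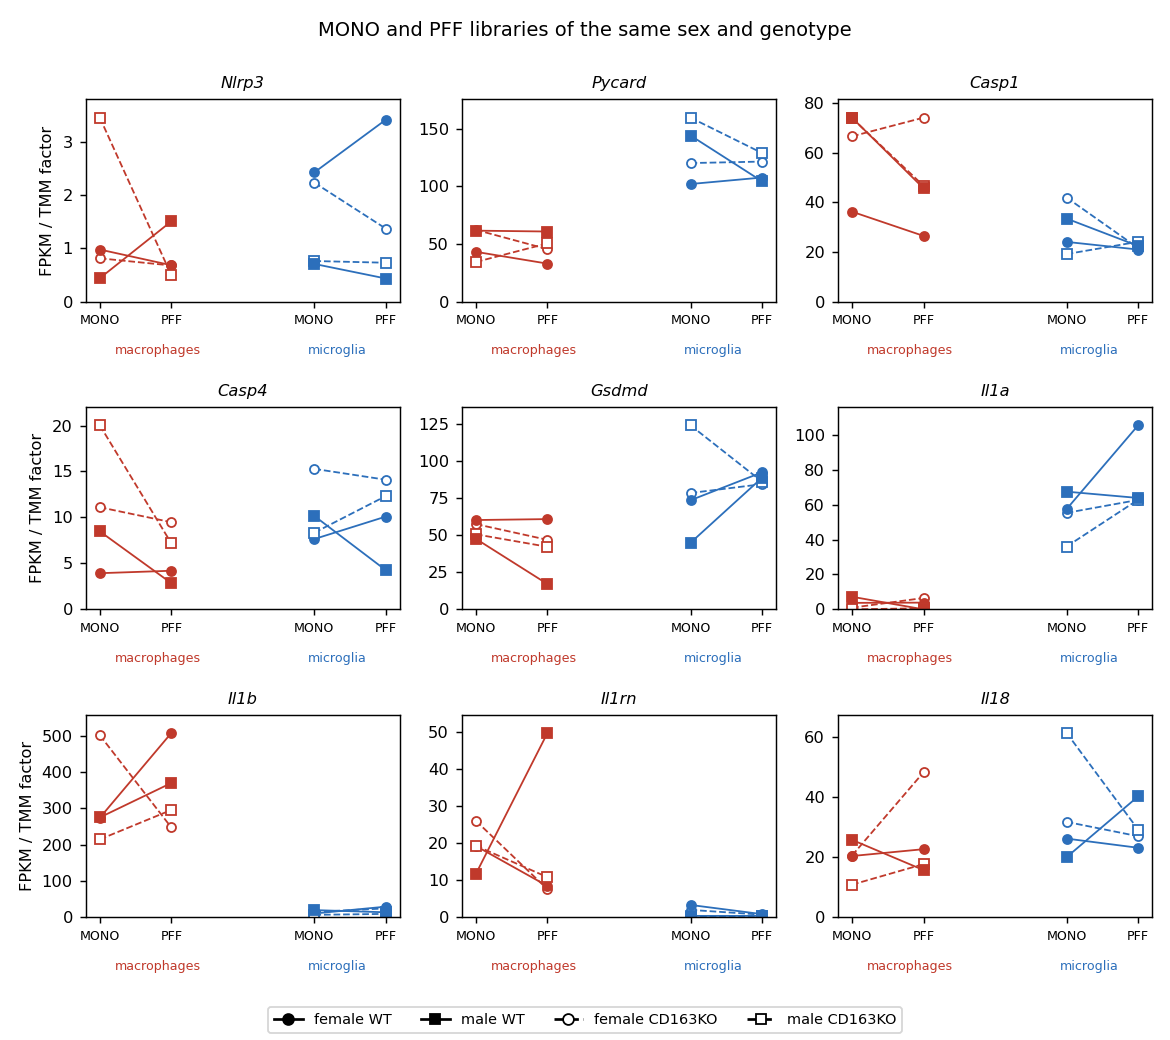
FPKM divided by the TMM factor of the library (vertical axis, from 0) for the 9 genes under MONO and PFF, with macrophages in red on the left and microglia in blue on the right of each panel. Lines join libraries of the same sex and genotype, with filled symbols for WT and open symbols for CD163KO, circles for females and squares for males. For every gene the lines of a population run in both directions, and in microglia Il1a spans 36.1 to 106 while in macrophages it spans 0 to 7.23.

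For CD163KO against WT, no member was called in either population, where 0.00887% of 11276 genes (1 gene, Cd163 itself) were called in macrophages and 0% of 12206 in microglia. The unadjusted p was under 0.05 for 79 and 160 genes, again with 0 members, and DESeq2 called 1 and 3 genes and 0 members. Macrophage Il1b had a median of 217 FPKM in CD163KO (143 to 311) and 238 FPKM in WT (194 to 536), with a log2 fold change of -0.06 ± 0.41 (SE, adjusted p = 1.0, edgeR). Macrophage Casp1 had the smallest unadjusted p of the 9 (0.13; log2 fold change 0.74 ± 0.43, adjusted p = 1.0; SE, edgeR).

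Casp4 in microglia separated the genotypes in the libraries tested. It read 23.4 (female CD163KO PFF), 26.2 (female CD163KO MONO) and 20.3 FPKM (male CD163KO PFF) against 13.8 (female WT MONO), 16.7 (female WT PFF), 18.0 (male WT MONO) and 1.96 FPKM (male WT PFF). All 3 CD163KO values were above the 4 WT values, as for 3.39% of 11119 genes, and this held after division by TMM factors too, as for 3.31%. The excluded male CD163KO MONO library read 7.12 FPKM, within the WT range. The log2 fold change was 0.74 ± 0.40 (unadjusted p = 0.099, adjusted p = 1.0; SE, edgeR), and 0.58 to 1.06 when libraries were left out in turn. Casp4 lies beside Casp1 on chromosome 9 (5308849 to 5336791 and 5298517 to 5307281), and microglial Casp1 gave 0.22 ± 0.30 (adjusted p = 1.0; SE, edgeR) in the same comparison.

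Whether the treatment difference depended on the genotype was tested by an interaction term, the PFF minus MONO difference in CD163KO less that in WT. With male CD163KO MONO left out, the CD163KO MONO group was 1 library in each population, female CD163KO MONO, and in microglia that is the library whose label the Y-linked counts contradict. The term rests on that library and could not be fitted without it. No member was called in either population, as 0% of the genes were, and the unadjusted p was under 0.05 for 48 genes in macrophages and 515 in microglia, with 0 members. DESeq2 called 12 and 30 genes and 0 members. In macrophages the term was -1.59 ± 0.84 for Il1b (unadjusted p = 0.095) and -2.45 ± 1.35 for Il1rn (unadjusted p = 0.11; log2 scale, SE, adjusted p = 1.0 for both, edgeR), where the median term of all genes was 0.81. Female WT PFF macrophages decided what was called here. Without that library 3453 genes were called, among them Il1a (11.81, adjusted p = 4.6e-04) and Il1rn (-3.17, adjusted p = 0.0011; edgeR), and the WT PFF group then consisted of male WT PFF alone, which had no Il1a count and the highest Il1rn.

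Between the sexes no member was called either, with 0% of the genes called in both populations. The unadjusted p was under 0.05 for 149 genes and 0 members in macrophages and for 214 genes and 1 member, Nlrp3, in microglia. DESeq2 called 16 and 21 genes and 0 members. Microglial Nlrp3 read 3.82 (CD163KO MONO), 2.27 (CD163KO PFF), 4.36 (WT MONO) and 5.63 FPKM (WT PFF) in the libraries labelled female. In males the same groups read 0.65, 1.20, 1.25 and 0.20 FPKM. All 4 libraries labelled female were above all 4 males, including the excluded library, and so were they after division by TMM factors. The log2 fold change, males against females, was -1.81 ± 0.69 (unadjusted p = 0.027, adjusted p = 1.0; SE, edgeR).

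Microglial Il1rn split in the same way. The libraries labelled female read 3.29, 1.06, 5.86 and 1.28 FPKM in that order of groups, and the males 0.02, 0.39, 0.54 and 0.14 FPKM, which are 1, 15, 11 and 6 counts. Both Nlrp3 and Il1rn belonged to the 5.31% of 11119 genes wholly lower in males, and to the 3.43% after division by TMM factors. For Il1rn the log2 fold change was -1.97 ± 1.36 (adjusted p = 1.0; SE, edgeR). The library labelled female CD163KO MONO, which held Y-linked counts, was on the female side for both. Without it the log2 fold changes were -1.73 ± 0.81 for Nlrp3 (unadjusted p = 0.061) and -1.95 ± 1.55 for Il1rn (SE, edgeR, adjusted p = 1.0 for both). Macrophages showed no such split, with Nlrp3 at 0.26 to 0.76 FPKM in females and 0.24 to 5.00 FPKM in males. In microglia the summed immediate early genes were also higher in the library labelled female of each pair. They read 1999 against 653 (CD163KO MONO), 4014 against 3384 (CD163KO PFF), 3857 against 1803 (WT MONO) and 6825 against 1226 FPKM (WT PFF). This order held after division by TMM factors. Their part in the Nlrp3 and Il1rn values was not tested.

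Most members had 1 transcript in the files, but Il1rn had 3 and Il18 had 2, with counts divided by RSEM. Of 6378 Il1rn counts in the 8 macrophage libraries, 81.8% were assigned to NM_001159562 and 17.8% to NM_001039701, which both use the downstream starts whose upstream bases are shown above. The transcript of the upstream start, NM_031167, received 0.348%, from 2 libraries, and none of the 381 counts in microglia. The downstream pair start 22 bases apart and share most of their sequence, so that the split between them is an estimate. The macrophage libraries of male WT PFF and male CD163KO MONO placed all of their 3133 and 1248 counts on NM_001159562, while the other 6 divided them. These libraries set the pooled shares. Without male WT PFF the shares of NM_001159562 and NM_001039701 were 64.2% and 35.1%, and without both libraries they were 41.9% and 57.0%, so that their order turned and NM_031167 held 1.11%. The medians over the 8 libraries were 51.8% and 46.9%. In microglia the libraries labelled female had 131, 44, 94.5 and 50 counts on NM_001039701, and only female WT MONO had counts (28.6) on the other transcript. The 33 counts of the 4 male microglia libraries were all on NM_001159562. Of Il18, NM_001357221 received 90.2% of the counts in macrophages and 87.8% in microglia, and NM_008360 the rest.

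**Figure D4:**
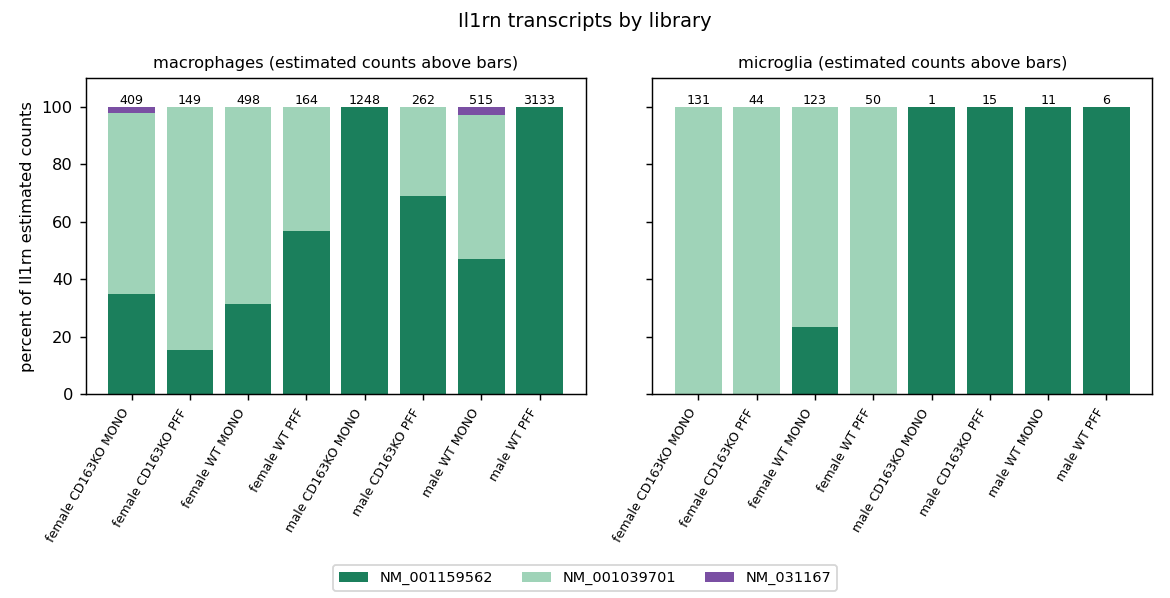
Percent of the Il1rn estimated counts of each library (vertical axis) that were assigned to each of 3 RefSeq transcripts, with macrophages on the left and microglia on the right and the number of counts above each bar. NM_031167, which uses the upstream start, holds at most 2.62% of a library, and the male microglia bars rest on 1 to 15 counts.

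Likeness to other genes was described by Pearson's correlation of log2(FPKM + 1) over the 8 libraries of a population, where the points share the depth and composition of their library. Among 2255 genes with at least 5 FPKM in all 8 macrophage libraries, the closest to Il1b were Tmed5 (r = 0.97), Polr2e and Tpgs1 (both r = 0.95). Those closest to Il1rn were Adgre5 (r = 0.98), which encodes the leukocyte surface protein CD97, Cyp4f18 and Pdlim7 (both r = 0.97). For Il18 they were Rida (r = 0.93) and the genes Ccl12 and Cd209g (both r = 0.92), a chemokine and a C-type lectin. In microglia, out of 3158 genes, Il1b was closest to Cd83, Cd74 (r = 0.97 and 0.96), which belong to antigen presentation, and Btk (r = 0.96), and Il1a to Ptbp1, Dusp6 and Cops7a (r = 0.98 each). Pycard, Casp1, Casp4 and Gsdmd had r of 0.951 to 0.995 with their 3 closest genes in both populations.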

How the data were processed

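RNA of sorted macrophages and microglia was sequenced by the study with SMART-seq2. The submitters' processing notes name Bowtie2, RSEM and DESeq2 and the build mm10. The deposited estimated counts per RefSeq transcript are RSEM output that the authors did not normalize. The deposited FPKM are the same counts divided by the authors by transcript length and library total. Transcripts a library does not list were taken as 0. Here 27632 of 27787 transcripts were given a symbol and summed to genes, and counts were rounded. Genes with a CPM of at least 1 in at least 2 libraries were tested with edgeR 4.0.16 (R 4.3.3; quasi-likelihood test, TMM, Benjamini-Hochberg, called at adjusted p of at most 0.05). The SE printed for edgeR are derived values, the absolute log2 fold change divided by the square root of the F statistic. The population fit used 14 libraries with the combination as a block. Other fits used 7 libraries of a population with sex, genotype and treatment as terms. Since each combination had 1 library, p-values measure the spread left after these terms, and counting intervals would cover counting error only. DESeq2 1.42.0 and limma 3.58.1 (log2 of FPKM plus a pseudocount of 1) served as alternatives. The edgeR fits were also run on simulated counts with known changes, and the outcome is not given here. Libraries carry no batch label, and the batch correction and outlier removal of the study could not be repeated. The members, lists and rules were chosen with earlier results of these data known: the 9 members everywhere, up to 4 called pathway genes at either end of a comparison, and the 3 genes most like a member.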

Additional observations from a re-analysis of the deposited data

Results flagged for a closer look

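Among 18 sets of 8 libraries (9 genes in each population), 2 held a library whose gap to the next, as a share of the whole range of log2(FPKM + 1), exceeded Dixon's 95% critical value for 8 values. Chance flags about 1 set in 20. Both were low values of male WT PFF microglia. Pycard read 48.1 FPKM there (gap 0.622 of the range) and Il18 18.6 FPKM (gap 0.594 of the range). Divided by the TMM factor of that library, 0.461, the levels were 104 for Pycard and 40.2 for Il18, inside the ranges of the other 7 libraries (102 to 160 and 20.0 to 61.4). The male WT PFF microglia library is the one whose top gene, Cst3, took 19.7% of the counts, and its part in these values was not tested.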

How the results depend on the processing

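In the comparison of populations, the number of genes called was 2542 in the reported fit. It was 4722 with DESeq2, 6324 with library totals, and 6329, 6434 and 5984 with limma on log2(FPKM + 1), log2(FPKM + 0.1) and log2(FPKM + 5), and 5346 with limma and no filter. It was 1779 to 4889 when combinations were left out in turn, the highest without male WT PFF. Il1a, Il1b and Il1rn kept their direction and call in all 17 alternatives, and Pycard lost its call only where a 2-fold change was required too (log2 fold change -0.90). Casp1 turned to -0.19 with library totals and to -0.11, -0.12, -0.10 and -0.11 with limma at pseudocounts of 1, 0.1 and 5 and with no filter, and Il18 turned to -1.32, -1.26, -1.31, -1.07 and -1.26 in the same settings, to -0.26 with no filter on counts, to -0.22 with male CD163KO MONO, and to -0.10 and -0.05 without female CD163KO PFF and without male WT MONO (range -0.10 to 0.32 over combinations left out). The median of all genes moved with these settings as well. Less that median, Casp1 stayed above 0 in every setting (0.27 to 1.84). Il18 fell below 0 only with limma at pseudocounts of 1 and 5 and with no filter (-0.20, -0.53 and -0.88). In the 4 limma settings 7 members were called, with Casp1 no longer called and Casp4 (adjusted p 0.010 to 0.027), Gsdmd (0.0029 to 0.0042) and Il18 (0.027 to 0.041) called lower. The log2 ratio of Il1rn to Il1b differed by -0.40 to 0.40 between the populations when combinations were left out, and by 0.58 with male CD163KO MONO. In the comparisons within a population members were called in only 1 alternative, the genotype by treatment term without female WT PFF macrophages (0 to 2 members over the libraries left out). Il1rn under PFF against MONO in macrophages turned to 0.52 and 0.10 without female CD163KO MONO and without female WT PFF (range -1.56 to 0.52). Under PFF against MONO in microglia, Il1a turned to -0.055 with library totals and to -0.19, -0.20, -0.17 and -0.19 with limma at pseudocounts of 1, 0.1 and 5 and with no filter, Il1b to -0.12, -0.089, -0.12, -0.017 and -0.089 in these settings, and Gsdmd to -0.043, -0.045, -0.034 and -0.043 with limma alone. The median of all genes went from 0.12 in the reported fit to -0.38 with library totals. With limma it was -0.39, -0.47, -0.23 and -0.13 in the same order. All of these gene values lay above that median except Il1a with limma and no filter. For PFF against MONO in macrophages, Il1b turned to -0.083 with library totals and to -0.11, -0.11, -0.10 and -0.11 in the same limma settings, to -0.050 in females alone, and to -0.10, -0.34 and -0.057 without female WT MONO, female WT PFF and male WT MONO (range -0.34 to 0.73). The median of all genes was -0.12 in the reported fit, -0.43 with library totals and -0.28, -0.42, -0.12 and -0.12 with limma. Il1b lay above it with library totals and with limma at pseudocounts of 1 and 0.1. It lay below it in females alone (median 0.014) and without male WT MONO (median 0.017). For genotype, Il1b in macrophages turned to 0.22, 0.37 and 0.0040 without female CD163KO PFF, female WT PFF and male WT PFF (range -0.68 to 0.37), and Casp1 in microglia to -0.12 without female CD163KO MONO (range -0.12 to 0.45). Over all genes, DESeq2 called 6, 16 and 12 genes in macrophages for treatment, sex and genotype by treatment, and 26, 3, 21 and 30 in microglia for treatment, genotype, sex and genotype by treatment. Library totals called 1, 2, 6 and 6 genes in macrophages (treatment, genotype, sex, genotype by treatment) and 3, 5 and 1 in microglia (treatment, sex, genotype by treatment). With no filter on counts 1 gene was called for sex in macrophages, and 11, 19, 6 and 105 in microglia (treatment, genotype, sex, genotype by treatment), and 1 with male CD163KO MONO for sex in macrophages. Limma on log2(FPKM + 1) called 1, 4, 6 and 3 genes in macrophages and 1, 5 and 2 in microglia (treatment, sex, genotype by treatment). With a pseudocount of 0.1 it called 4, 5, 8 and 5 in macrophages and 3 and 1 in microglia (sex, genotype by treatment), with 5 it called 1, 3 and 4 in macrophages (treatment, genotype, sex) and 1, 1, 4 and 2 in microglia, and with no filter 0 for genotype in macrophages. Females alone gave 0 for genotype in macrophages, and 1 for treatment and 66 for genotype in microglia. Leaving out each library in turn gave 0 to 1 genes for treatment in either population, 0 to 5 for genotype in macrophages, 0 to 3 for sex in microglia, and 2 to 3453 and 0 to 168 for genotype by treatment in macrophages and microglia. The term could not be fitted without female CD163KO MONO. Causes of these changes were not tested. The comparison of populations paired libraries by combination, and without that block 2952 genes and the same 5 members were called. The labels carry no replicate numbers to use as a block within a population. With 1 library per combination, no difference inside 1 combination has an error, and genes at few counts, such as Il1rn in male microglia (1 to 15 counts) and Il1a in macrophages, limit what depth can show.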
